A study of Mus musculus with 36 samples.

Results

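The forkhead (Fox) genes encode transcription factors that share a winged-helix DNA-binding domain. All 37 autosomal forkhead genes of the mouse annotation were described, out of 20807 autosomal and 21938 protein-coding genes in all. The 37 members were chosen by gene name and were divided by general knowledge of where they act. There were 21 tissue-restricted members, used mainly outside the hippocampus and cortex (Foxa3, Foxb1, Foxb2, Foxc1, Foxc2, Foxd1, Foxd2, Foxd3, Foxd4, Foxe1, Foxe3, Foxf1, Foxf2, Foxh1, Foxi1, Foxi2, Foxi3, Foxl1, Foxl2, Foxq1 and Foxs1). There were 10 widely expressed members (Foxj2, Foxj3, Foxk1, Foxk2, Foxn2, Foxn3, Foxo1, Foxo3, Foxp1 and Foxp4). The other 6 (Foxj1, Foxm1, Foxn1, Foxn4, Foxo6 and Foxp2) were kept apart, being restricted relatives of the J, N, O and P members or, for Foxm1, tied to the cell cycle. Expression was not among the values used here, so the names silent and active stand for this division and not for measured transcripts.

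ChIP-seq of H2AK119ub1, H3K27me3 and H3K36me2 was available for hippocampi of newborn mice (postnatal day 0) and for neurospheres, cultures of neural progenitors that were grown from such hippocampi with FGF and EGF. Ctrl samples carried Kdm2bfl/+ or Kdm2bfl/fl. In the cKO samples (Kdm2bEmx1-delta-CxxC) Emx1-Cre had removed the exon for the CxxC zinc finger of KDM2B, so that a truncated protein without this finger remains, and Emx1-Cre acts in dorsal forebrain progenitors and their progeny while other cells of the tissue keep the intact gene. There were 24 libraries, 2 for every combination of mark, source and genotype. The labels do not say that the libraries came from separate animals or cultures, so p-values measure only the spread between these libraries, which may be technical.

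PRC1 ubiquitylates histone H2A (H2AK119ub1) and PRC2 trimethylates histone H3 (H3K27me3), and both marks cover developmental regulators in cells that do not use them. The CxxC finger of KDM2B binds unmethylated CpG dinucleotides and brings a variant PRC1 to CpG-rich promoters, while the long form of KDM2B can also demethylate H3K36me2. H3K36me2 is a broad mark of gene bodies and the space between genes, and it hinders PRC2. Restricted forkhead factors set up organs such as lung, thyroid, ovary and kidney, whereas FOXK and FOXO factors act in metabolism and insulin signalling in most cells.

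The start regions of 3 members show how different the CpG content of the family is, and these members carry the contrasts described below. Each line gives the 200 bases upstream of the annotated start in the GRCm38 genome, 5' to 3' on the strand of the gene, with every CG dinucleotide in capitals (CG reads the same on both strands). Foxc1 (chr13:31806433-31806632, plus strand) held 22 CG and was under H3K27me3 in both sources. Foxi1 (chr11:34208090-34208289, minus strand) held 3 CG and had H3K27me3 at its start in 1 of 4 hippocampal libraries but in all 4 neurosphere libraries. Foxk2 (chr11:121259790-121259989, plus strand) held 42 CG and had no island of the 3 marks at its start in any library.
Foxc1: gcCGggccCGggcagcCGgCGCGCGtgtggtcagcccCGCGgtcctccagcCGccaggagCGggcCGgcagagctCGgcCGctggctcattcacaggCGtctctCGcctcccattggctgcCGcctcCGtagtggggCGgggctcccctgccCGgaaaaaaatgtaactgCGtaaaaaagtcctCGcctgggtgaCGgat
Foxi1: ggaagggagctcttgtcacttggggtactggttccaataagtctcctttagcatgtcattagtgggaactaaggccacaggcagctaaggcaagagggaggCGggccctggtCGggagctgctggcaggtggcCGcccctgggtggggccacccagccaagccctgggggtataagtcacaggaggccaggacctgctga
Foxk2: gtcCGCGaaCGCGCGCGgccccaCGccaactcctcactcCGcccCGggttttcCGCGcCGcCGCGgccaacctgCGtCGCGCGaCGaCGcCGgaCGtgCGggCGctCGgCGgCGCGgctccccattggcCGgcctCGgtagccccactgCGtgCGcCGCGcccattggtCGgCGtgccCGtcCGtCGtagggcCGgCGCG

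Over all autosomal genes the same 200 bases held a median of 7 CG, with a range of 0 to 47, and 90.6% of genes held at least 1. The share of genes with at least as many CG was 10.7% for Foxc1, 72.2% for Foxi1 and 0.0673% for Foxk2. The restricted members held a median of 9 CG (2 to 23), the 6 others 15 (4 to 35) and the widely expressed members 26.5 (1 to 42). A start was called CpG-rich when the 1 kb around it had over 50% GC and over 0.6 of the CpG number its base content predicts, which held for 14 of 21 restricted, 5 of 6 other and 9 of 10 widely expressed members, beside 45.7% of all autosomal genes. The CpG-poor members were Foxa3, Foxd4, Foxh1, Foxi1, Foxi2, Foxq1 and Foxs1 among the restricted members, Foxn1 among the other 6 and Foxj3 among the widely expressed members. The restricted genes were also short, with a median length of 3.23 kb (0.867 to 10.3), against 72.7 kb (25.5 to 597) for the widely expressed members and 20.0 kb for the other 6.

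The measurements are SICER islands, broad intervals on a grid of 200 bp in which reads exceeded the input, each with its raw read count. The islands of a library covered between 37.3 and 497 Mb and held between 987329 and 22021439 reads, and this sum moves with the covered length and is not the sequencing depth. A place without an island has an unknown count, which is not 0. The hippocampal H2AK119ub1 libraries of replicate 1 stood apart, with 45.7 Mb (Ctrl) and 37.3 Mb (cKO) covered against 157 and 247 Mb in replicate 2. The hippocampal H3K27me3 library Ctrl 2 covered 54.9 Mb against 122 to 160 Mb in the other 3, and the neurosphere H3K36me2 library cKO 1 covered 497 Mb against 349 to 432 Mb. The neurosphere H2AK119ub1 libraries also differed, with 327 Mb (Ctrl 1), 127 Mb (Ctrl 2), 174 Mb (cKO 1) and 314 Mb (cKO 2). The part of these differences in the results was not tested. The islands cannot check the deletion of the Kdm2b exon, and the Kdm2b start had no island in 6 of 8 H2AK119ub1, 8 of 8 H3K27me3 and 6 of 8 H3K36me2 libraries. Coverage is the percent of bases of a promoter (2 kb on each side of the start) or gene body that lie in islands, and per-library values are listed in the order Ctrl 1, Ctrl 2, cKO 1, cKO 2.

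For scale, 6 gene lists were measured in the same way, and the mean promoter coverage is given for hippocampus and then neurospheres. The 10 regulators of other organs outside the family (Gata4, Gata6, Pax1, Pax9, Tbx3, Tbx5, Hand2, Myod1, Nkx2-5 and Sim1) had 100 and 99.7% for H3K27me3, 69.6 and 78.9% for H2AK119ub1 and 0 and 0% for H3K36me2. The 10 housekeeping genes showed 0 and 0.394% for H3K27me3, 0.846 and 13.4% for H2AK119ub1 and 2.33 and 11.7% for H3K36me2. The 10 genes for partners and regulators of forkhead proteins, among them Akt1, Smad2 and Bap1, reached 6.24 and 8.60% for H3K27me3, 9.31 and 21.4% for H2AK119ub1 and 0.469 and 8.30% for H3K36me2. The 6 markers of progenitors held 12.1 and 19.0% for H3K27me3, 42.03 and 60.6% for H2AK119ub1 and 0 and 14.6% for H3K36me2. The 6 markers of neurons came to 4.67 and 23.3% for H3K27me3, 16.9 and 24.4% for H2AK119ub1 and 1.66 and 10.1% for H3K36me2. The 18 markers of other cells stood at 43.5 and 47.3% for H3K27me3, 34.1 and 46.6% for H2AK119ub1 and 5.12 and 25.2% for H3K36me2. Both hippocampus and neurospheres hold more than 1 cell type, so fewer marked cells and less mark per cell cannot be told apart in any value here.

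H3K27me3 islands lay over the restricted members and left the starts of most widely expressed members bare. In hippocampus 19 of 21 restricted members had an H3K27me3 island at the start in all 4 libraries, the exceptions being Foxi1 and Foxs1, beside 8.8% of all autosomal genes. In neurospheres 21 of 21 did, beside 16.2%. Of the 10 widely expressed members, Foxp4 had such an island in all 4 libraries of both sources and Foxo1 in all 4 of the neurospheres. Foxj2, Foxj3, Foxk1, Foxk2, Foxn2, Foxn3 and Foxo3 had no H3K27me3 island at the start in any of 8 libraries, while Foxp1 varied between libraries.

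The promoter coverage by H3K27me3 of the restricted members averaged 88.0, 84.3, 86.9 and 97.8% in the 4 hippocampal libraries and 98.0, 97.5, 96.1 and 94.4% in those of neurospheres. The widely expressed members averaged 6, 10.2, 2.39 and 18.7% in hippocampus and 18.4, 18.9, 14.9 and 11.7% in neurospheres. In every library the mean of the restricted members was the higher, although single members such as Foxp4 crossed over. The gap between them was 79.9 ± 4.47 percentage points in hippocampus and 80.5 ± 1.81 points in neurospheres (SD, n = 4 libraries), far above the spread between libraries. Over gene bodies the gap was 81.8 ± 5.06 and 86.9 ± 2.67 points. Over all autosomal genes the mean promoter coverage was 11.8% in hippocampus and 18.4% in neurospheres, and over CpG-rich ones 11.6% and 13.6%. The members were divided by general knowledge of where they act, but earlier results of these data were known when they were chosen. They are also not replicates, so the gaps are given as a description without a test.

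**Figure D1:**
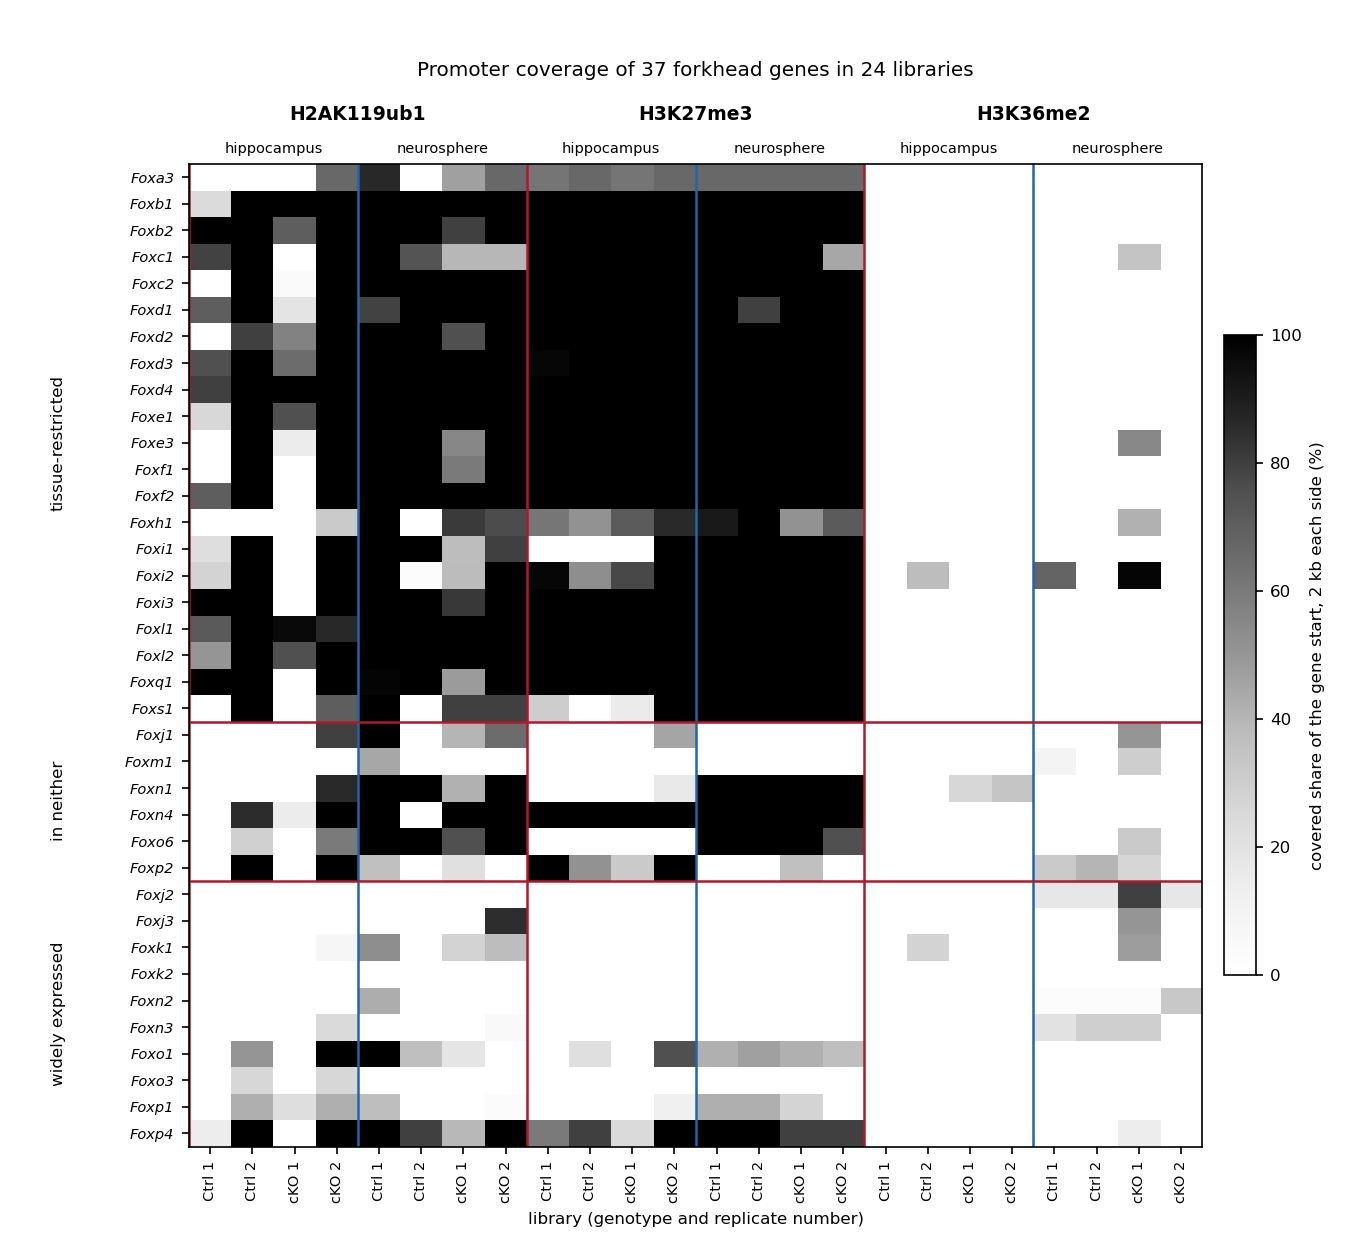
Percent of the promoter (2 kb on each side of the gene start) covered by islands for each of 37 forkhead genes (rows) in each of 24 libraries (columns), grouped by mark and source, with white for 0% and black for 100%. H3K27me3 is at or near 100% for most restricted members, and Foxj2, Foxj3, Foxk1, Foxk2, Foxn2, Foxn3 and Foxo3 stay at 0% for this mark.

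H2AK119ub1 drew the same division with a wider spread in hippocampus. The restricted members averaged 42.6, 89.5, 32.2 and 93.1% in hippocampus and 98.3, 79.8, 77.3 and 92.5% in neurospheres. The widely expressed members averaged 1.39, 21.8, 2.20 and 30.005% and 33.2, 11.7, 8.47 and 23.0%. The gap was 50.5 ± 17.9 points in hippocampus, where it ranged from 30.01 to 67.7 with the 2 narrow replicate 1 libraries low, and 67.9 ± 1.93 points in neurospheres (SD, n = 4). Over gene bodies it was 44.3 ± 21.7 and 65.6 ± 4.04 points. An island stood at the start in all 4 hippocampal libraries for 8 restricted members (Foxb1, Foxb2, Foxd1, Foxd3, Foxd4, Foxe1, Foxl1 and Foxl2) and for none of the other 16, beside 1.67% of all genes. In neurospheres 19 restricted members, Foxn1, Foxo6 and Foxp4 had one in all 4, beside 7.08%, and the 2 restricted members that missed it in 1 library were Foxa3 and Foxh1. Of the 10 widely expressed members, 4 had no H2AK119ub1 island at the start in any hippocampal library and 3 had none in any neurosphere library. Foxj2 and Foxk2 had no H2AK119ub1 island at the start in any of the 8 libraries. Over all autosomal genes the mean promoter coverage by this mark was 8.62% in hippocampus and 18.6% in neurospheres.

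**Figure D2:**
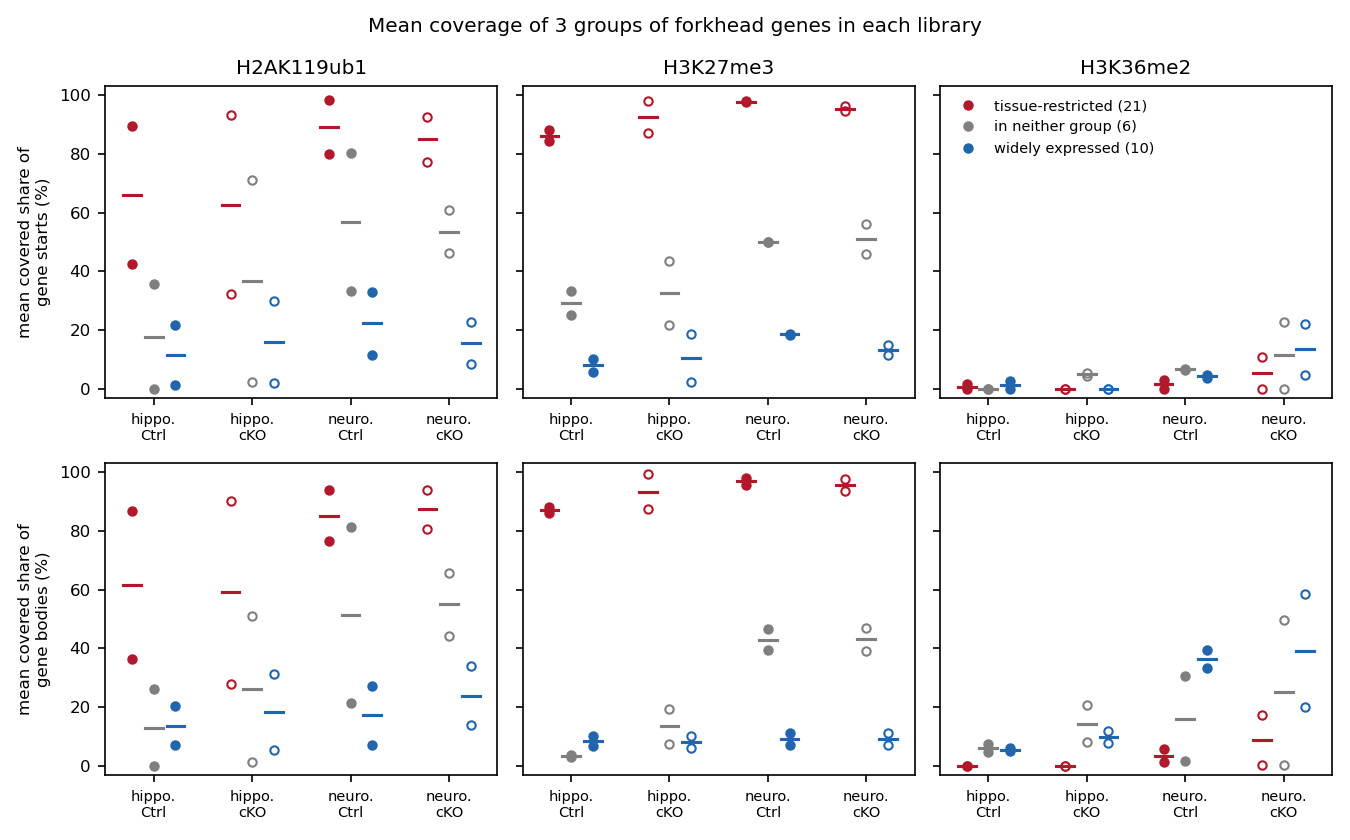
Mean percent of the promoter (top) and of the gene body (bottom) covered by islands in each library, for the 21 restricted, 6 other and 10 widely expressed members, by mark, source and genotype. Each point is 1 library, filled for Ctrl and open for cKO, and the short line is the mean of the 2 libraries. The restricted members lie above the widely expressed ones in every H2AK119ub1 and H3K27me3 library.

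Within the restricted members, the CpG content went along with how completely the start was covered in hippocampus. The 14 CpG-rich members had an H3K27me3 coverage of 100.0 ± 0.0875% and the 7 CpG-poor members 67.8 ± 17.6% (SD over 4 libraries). In neurospheres the means were 98.6 ± 1.88% and 92.1 ± 3.11%, and 7 of 7 CpG-poor members had an island in all 4 libraries, against 5 of 7 in hippocampus. For H2AK119ub1 the means were 71.6 ± 31.6% and 49.9 ± 31.6% in hippocampus and 94.4 ± 6.30% and 72.2 ± 24.5% in neurospheres, and 14 of 14 and 5 of 7 had an island in all 4 neurosphere libraries. The CpG-poor gene Foxs1, known in pericytes, had H3K27me3 over 30.2, 0, 15.2 and 100% of its start in hippocampus and over 100% in each of the 4 neurosphere libraries.

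The islands over the restricted members were wide and dense. The median island over a restricted start was 24.1 kb for H3K27me3 in hippocampus, against 5.4 kb over all marked promoters, and 39.5 kb against 8.8 kb in neurospheres. For H2AK119ub1 it was 10.7 kb against 4.4 kb and 16.9 kb against 8 kb. The H3K27me3 island was the wider of the pair in 20 of 21 restricted members in each source, by the mean width over 4 libraries. A library without an island entered this mean as 0, unlike in the medians above. In hippocampus 13 of 21 restricted members lacked an H2AK119ub1 island in at least 1 library, so that count partly reflects missing calls. Foxb1, a gene of the mammillary region, had on average the widest H3K27me3 islands of the restricted members, 51.4, 31.4, 148 and 55.8 kb in hippocampus and 61.6, 51.8, 76.6 and 209 kb in neurospheres. Foxh1, the partner of SMAD proteins in Nodal signalling, had on average the narrowest in hippocampus, at 4, 3, 3.8 and 5.6 kb. In neurospheres the narrowest averages were those of Foxc1, a gene of mesenchyme and meninges, at 8.2, 8.4, 8.2 and 7.8 kb, and of Foxh1, at 10.6, 10.8, 5.8 and 5.4 kb. Read density, in counts per kb of island relative to all islands of the library, had a median of 1.66 in hippocampus and 2.13 in neurospheres over the restricted members for H3K27me3, against 0.971 and 0.922 over all marked promoters. For H2AK119ub1 it was 1.27 and 1.35. The medians of width and density over members are taken from the mean of each gene over its libraries with an island. Those over all marked promoters are taken from single islands, so the 2 kinds of median are not built alike. An island shared by 2 members counts for both.

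Neighbouring members lay under shared islands where they were close. H3K27me3 covered 100% of the starts of Foxd2, Foxe3, Foxf1, Foxc2, Foxl1, Foxq1 and Foxf2, the members within 100 kb of another, in all 8 libraries. Foxd2 and Foxe3, whose starts are 17.1 kb apart on chromosome 4, were under 1 H3K27me3 island in 3 of 4 hippocampal libraries (65 to 71.2 kb) and 3 of 4 neurosphere libraries (40.6 to 60.8 kb), and under no shared H2AK119ub1 island. Foxc2, known in lymphatic vessels, and Foxl1, known in gut mesenchyme, have starts 11.8 kb apart on chromosome 8. They shared an H3K27me3 island in 4 of 4 libraries of each source, of 20.2 to 31.4 kb in hippocampus and 59.8 to 124 kb in neurospheres. The widths of that shared island were 22.4, 20.2, 22.4 and 31.4 kb and then 124, 71.4, 95.6 and 59.8 kb, without overlap. Islands over all marked promoters were also wider in neurospheres, with a median of 8.8 kb against 5.4 kb in hippocampus. Foxf1, a gene of lung and gut mesenchyme whose start is 31.8 kb from that of Foxc2, had its own H3K27me3 islands of 26.4, 26.4, 25.8 and 27.2 kb and of 54.6, 56, 53.6 and 53.8 kb. It shared an island with them in 1 neurosphere H2AK119ub1 library only (85.6 kb). Foxq1 and Foxf2 (69.7 kb apart) and Foxf2 and Foxc1 (181 kb apart) on chromosome 13 shared none. Members under 1 island are not independent observations.

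Away from the start the coverage of the restricted members fell slowly. H3K27me3 covered 89.3% of the restricted members within 2 kb of the start in hippocampus, 70.2% at 5 to 10 kb, 52.0% at 10 to 20 kb and 31.4% at 40 to 50 kb. In neurospheres the values were 96.5, 80.8, 72.0 and 48.7%. The widely expressed members were covered less at the start than beyond it in neurospheres, with 15.9% within 2 kb, 24.7% at 5 to 10 kb and 22.6% at 40 to 50 kb. H2AK119ub1 over the restricted members went from 64.3% to 39.9, 23.4 and 13.5% in hippocampus, and from 87.0% to 69.4, 53.1 and 29.2% in neurospheres.

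**Figure D3:**
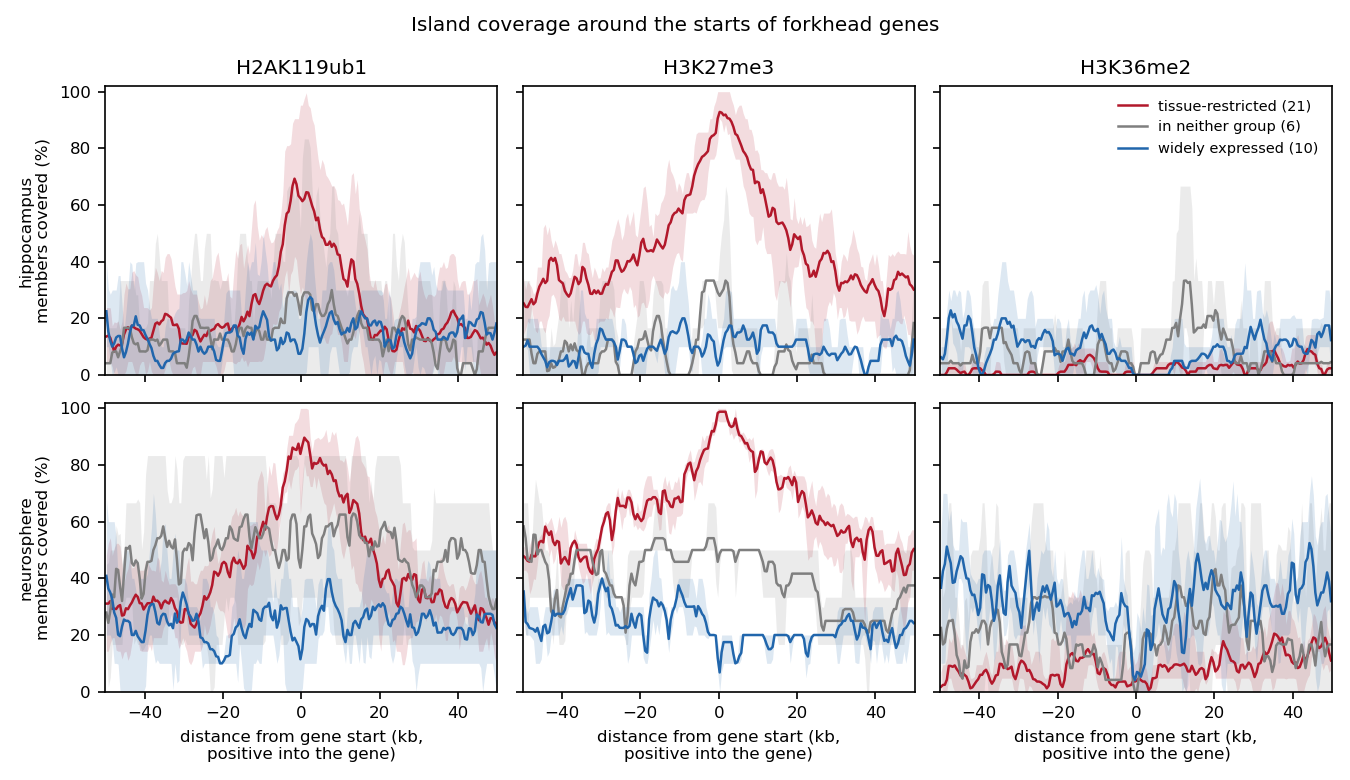
Share of the members covered by an island (percent) against the distance from the gene start (kb, in steps of 500 bp up to 50 kb), by mark and source; lines are means of 4 libraries and bands span the lowest to the highest library. H3K27me3 over restricted members peaks at the start, and H3K36me2 over widely expressed members in neurospheres dips there.

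H3K36me2 covered more of the widely expressed than of the restricted gene bodies, and it was scarce at starts. The widely expressed bodies averaged 5.02, 6.31, 11.8 and 7.87% in hippocampus and 39.4, 33.4, 58.4 and 20.1% in neurospheres, beside means of 3.32% and 17.005% over all autosomal genes. In hippocampus the 6 other members were in the same range or higher, at 4.74, 7.59, 8.20 and 20.7%. No member had an H3K36me2 island at the start in all 4 hippocampal libraries, beside 0.447% of all genes. In neurospheres Foxj2 and Foxn2 did, beside 5.12%. The promoter gap between restricted and widely expressed members was -0.246 ± 0.491 points in hippocampus and -5.49 ± 4.44 points in neurospheres (SD, n = 4), the first within the spread between libraries. Over gene bodies it was -7.76 ± 2.96 and -31.6 ± 8.85 points. The widely expressed genes are longer than the restricted ones, and the part of length in this gap was not tested.

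The largest H3K36me2 shares in neurospheres were at Foxn3, a repressor of the N subfamily, with 82.2, 84.6, 82.8 and 64.4% of the gene body. Foxo3, a target of AKT, had 82.6, 73.3, 87.0 and 39.2%. Foxo1, its close relative, had 52.3, 65.8, 59.6 and 26.7%. In each of these 3 genes the library cKO 2 was the lowest, and this library had the smallest covered length of its set. In hippocampus Foxn3 had 12.6, 18.5, 22.2 and 28.6% and Foxo1 16.96, 16.96, 36.3 and 24.7%. Along the widely expressed genes in neurospheres the first of 10 equal parts of the gene was covered to 23.1%, the next to 35.3% and the later 8 to between 35.8 and 44.0%, so coverage was lowest next to the start. Foxk1, a regulator of metabolism, showed how far libraries can differ, with 72.7, 0, 95.2 and 1.98%.

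Restricted gene bodies had no H3K36me2 island in hippocampus. In neurospheres Foxc1 had 32.1, 32.1, 32.1 and 8.15% and Foxi2 87.3, 0, 93.3 and 0%. The other restricted members with any were Foxa3, Foxe3 and Foxh1, in the wide library cKO 1 alone. The bases of the widely expressed gene bodies under H3K36me2 in neurospheres (825, 842, 861 and 484 of 1486 kb) were seldom also under H3K27me3, with a share of 3.18, 3.16, 10.9 and 0.951%. The highest share was in cKO 1, the library with the largest H3K36me2 coverage. H3K27me3 lay over 106, 132, 161 and 89.5 of these 1486 kb, so it covered little of these bodies as a whole. The few restricted bases under H3K36me2 (4.77, 1.88, 13.3 and 0.476 of 73.9 kb) were mostly also under H3K27me3 in the first 3 libraries, with 85.8, 85.3, 97.9 and 0%. H3K27me3 lay over 71.4, 67.0, 70.8 and 64.0 of those 73.9 kb, so most bases of the restricted bodies were under it. Whether either overlap departs from these shares was not tested. Both marks come from separate libraries, so whether they lie on the same chromatin cannot be told.

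Foxp4 and Foxo1 were the widely expressed members with H3K27me3 at the start throughout a source. Foxp4, a partner of the other P subfamily proteins, had H3K27me3 over 60, 80, 23.9 and 100% of its start in hippocampus and over 100, 100, 80 and 80% in neurospheres, under islands of 17.4, 9.4, 8 and 31.4 kb and 99, 70.2, 95.4 and 51.8 kb. Its H2AK119ub1 coverage was 13.9, 100, 0 and 100% and 100, 80, 38.9 and 100%. Its values thus lay among those of the restricted members and went against its place among the widely expressed ones. Foxo1 had H3K27me3 over 0, 21.6, 0 and 75% in hippocampus and 41.6, 46.6, 41.6 and 36.6% in neurospheres. Its islands in neurospheres were 2.6, 2.8, 12.2 and 3.4 kb wide, so 3 of 4 were below the median of 8.8 kb over all marked promoters.

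Foxp1 was marked differently at its 2 starts. The outermost annotated start, used above, and the start of the principal transcript lie 256206 bp apart. At the principal start H3K27me3 covered 100, 82.9, 75 and 37.1% in hippocampus and 0% in each of the 4 neurosphere libraries. At the outermost start it covered 0, 0, 0 and 11.975% in hippocampus and 41.975, 41.975, 26.975 and 0% in neurospheres. H3K36me2 at the principal start was at 0% in each hippocampal library and at 80, 100, 80 and 0% in neurospheres, so the sources did not overlap for H3K27me3 there and overlapped in 1 library for H3K36me2. How many other starts separate the sources is not given here. H2AK119ub1 covered the principal start of Foxp1 in both sources, at 60, 100, 45 and 100% and at 100, 52.1, 62.1 and 7.88%. At the principal start of Foxn3, 113508 bp from the outermost one, H3K36me2 covered 33.2, 100, 78.2 and 0% in neurospheres and H3K27me3 covered 0% in all 8 libraries.

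The 6 other members went separate ways. Foxm1, which drives mitotic genes, had no H3K27me3 island in any library. Foxj1, the regulator of motile cilia, had H3K27me3 in 1 library only, the hippocampal cKO 2 (45.0%). Foxn4, known in interneuron progenitors of retina and spinal cord, was at 100% in all 8, under islands of 8.8, 10.8, 8.8 and 11.4 kb in hippocampus and 63.2, 49.4, 62.6 and 51.4 kb in neurospheres. Foxn1, the regulator of thymic epithelium, had 0, 0, 0 and 16.1% in hippocampus and 100% in each neurosphere library.

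Foxo6 and Foxp2, both known in the brain, differed between the sources in opposite directions. Foxo6, a FOXO factor enriched in hippocampal neurons, had H3K27me3 over 0% of its start and gene body in the 4 hippocampal libraries. In neurospheres it had 100, 100, 100 and 75% of the start under islands of 203, 208, 198 and 50.2 kb, on average the widest of the family. Its H2AK119ub1 went from 0, 28.7, 0 and 60% to 100, 100, 75 and 100%. Foxp2, known from striatal and deep cortical neurons, had H3K27me3 over 100, 51.3, 31.3 and 100% in hippocampus under islands of 3.6 to 7.8 kb, and over 0, 0, 36.3 and 0% in neurospheres. In Foxo6 the sources did not overlap, and in Foxp2 they met in 1 library. The share of all starts that separate the sources in this way is not given here. H3K27me3 islands covered 268 to 321 Mb in neurospheres against 54.9 to 160 Mb in hippocampus. A start had one in all 4 libraries in 16.2% and 8.8% of all autosomal genes.

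To compare counts, islands of the libraries of a mark were merged into regions, counts were summed per region, and regions called in every library were fitted with edgeR's quasi-likelihood test (log2 fold changes with SE, Benjamini-Hochberg adjustment over all regions). A fold change here combines the called length and the read density and is relative to the other regions of the mark. Between the sources, with 8 libraries per mark, 8 of 21 H3K27me3 regions at members differed past an FDR of 0.05, with 4 lower in neurospheres beside 21.2% of all 2373 regions and 4 higher beside 21.3%. The share among the members was thus near that of all regions. The median log2 fold change was 0.02 over the member regions and -0.02 over all. DESeq2 also called 8 member regions, beside 48.8% of all regions.

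Foxc1 had the largest loss in neurospheres. Its region (chr13:31795001-31829800) held 1381, 963, 1614 and 2084 reads in hippocampus and 840, 733, 596 and 310 in neurospheres, although the neurosphere libraries held more reads in islands (13195590 to 17025504) than the hippocampal ones (1681001 to 5525016). The log2 fold change was -2.66 ± 0.28 (SE, edgeR adjusted p = 0.000173). The called length fell from 22.8 to 29.8 kb in hippocampus to 7.8 to 13.6 kb in neurospheres, and the groups overlapped in neither length nor counts. Foxq1, a gene of hair and epithelia, was lower as well (-1.01 ± 0.22, edgeR adjusted p = 0.00551), as were the shared region of Foxd2 and Foxe3 (-0.74 ± 0.18, edgeR adjusted p = 0.00896) and Foxb1 (-0.49 ± 0.15, edgeR adjusted p = 0.0282). Raw counts of these 3 regions were 901 to 1487, 2831 to 5323 and 5518 to 12099 in hippocampus and 1069 to 2765, 4941 to 8647 and 14715 to 21391 in neurospheres, so that the decrease is one relative to the larger totals of the neurosphere libraries.

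Foxn4 had the largest gain. Its region (chr5:114248001-114314000) held 397, 313, 535 and 904 reads in hippocampus and 6057, 5078, 4555 and 4198 in neurospheres. The log2 fold change was 1.92 ± 0.25 (SE, edgeR adjusted p = 0.000418), and the called length rose from 8.8 to 19 kb to 61.8 to 64.6 kb. The shared region of Foxc2 and Foxl1 (chr8:121108401-121462800) held 3024, 2236, 4763 and 6640 reads and then 29220, 24153, 18984 and 14315, a log2 fold change of 1.08 ± 0.21 (edgeR adjusted p = 0.00368). Its neighbour Foxf1 (0.74 ± 0.19, edgeR adjusted p = 0.0117) and Foxi1 (0.55 ± 0.17, edgeR adjusted p = 0.0249), a regulator of ion-transporting cells in ear and kidney, were also higher. The Foxi1 region spans 270.2 kb, and its start had an island in 1 hippocampal library only, so in the other 3 all reads of the region lay away from the start.

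**Figure D4:**
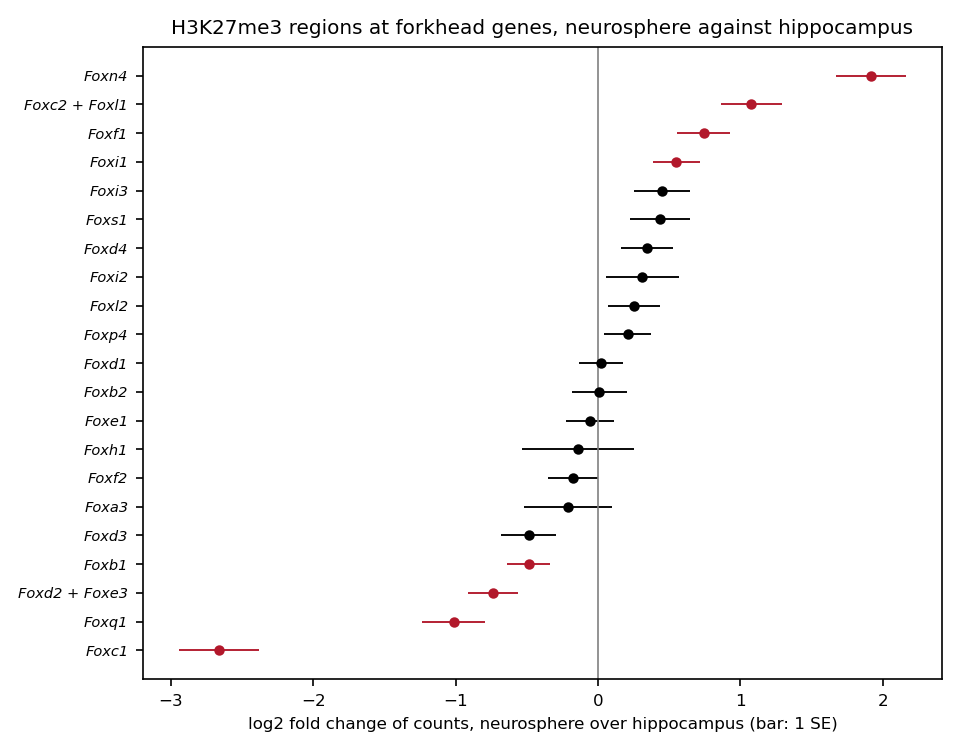
Log2 fold change of H3K27me3 counts, neurosphere over hippocampus, for the 21 merged regions at forkhead genes called in all 8 libraries; points are edgeR estimates, bars 1 SE, and red marks an adjusted p under 0.05. Foxc1 lies at -2.66 and Foxn4 at 1.92, the ends of the range.

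When counts were taken per called kb and scaled to the mean density, 8 of 21 member regions again passed but only 1 was lower, beside 25% of all regions. By density Foxc1 stayed lower (-0.50, edgeR adjusted p = 0.0216) and Foxn4 (0.43, edgeR adjusted p = 0.00976) and Foxf1 (0.29, edgeR adjusted p = 0.0257) higher. The density values of Foxq1, Foxd2 with Foxe3, Foxb1, Foxi1 and Foxc2 with Foxl1 were 0.16, 0.13, 0.20, 0.16 and 0.09 and did not pass, so the sign turned for the first 3. Leaving out 1 library at a time gave 4 to 10 member regions, the lowest without the neurosphere Ctrl 1 (30% of all regions) and the highest without the neurosphere cKO 2 (42.8% of all regions).

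For H2AK119ub1, 1 of 15 member regions differed between the sources, Foxo6, beside 11.2% of all 1555 regions lower and 9.32% higher. The Foxo6 region held 123, 2774, 73 and 4043 reads in hippocampus and 19801, 10688, 8517 and 11969 in neurospheres. It spans 222.6 kb, of which 5.4, 103.4, 2.8 and 145.8 kb were called in the hippocampal libraries. In hippocampal Ctrl 1 and cKO 1 the start had no island, so all reads of the region lay away from it. The log2 fold change was 2.12 ± 0.61 (SE, edgeR adjusted p = 0.0293), and by density it was 0.54 (edgeR adjusted p = 0.00690), where 7.46% of all regions passed. The call was lost without the hippocampal Ctrl 1 or the neurosphere cKO 1 library and 2 member regions passed without the neurosphere Ctrl 2 library, beside 26.8% of all regions. For H3K36me2 the 1 member region called in all 8 libraries, upstream of Foxn2, had a log2 fold change of -0.08 ± 0.36 (SE, edgeR adjusted p = 0.906), beside 4.25% of all 5204 regions lower and 5.38% higher. Over all regions 1500 had an unadjusted p under 0.05 and DESeq2 called 1051, none at a member.

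Between the genotypes no member region passed in any mark or source, and edgeR called 0% of all regions in each of the 6 comparisons. H3K27me3 in neurospheres had the most regions below an unadjusted p of 0.05, with 11 of 24 member regions (10 of them lower in cKO) beside 18.4% of all 11262 regions (8.94% lower). The smallest adjusted p was 0.175. Of the 24 member regions 20 had fewer counts relative to the rest in cKO, with a median log2 fold change of -0.37 against 0.01 over all regions. By density 18 were lower, with a median of -0.16. The member regions were wider, with a median of 68.3 kb against 13.8 kb over all regions. In hippocampal H3K27me3 these medians were 34.8 and 14 kb, and in H2AK119ub1 41.8 and 18.6 kb (neurospheres) and 23.6 and 18.4 kb (hippocampus). The part of region width in these shifts was not tested. DESeq2 called 2 member regions (Foxh1 and Foxi2) and 6.52% of all regions. Without the library cKO 1, edgeR called 10 member regions, 9 of them lower, beside 17.5% of 16288 regions.

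Foxh1 had the lowest log2 fold change of these regions. It held 892 and 684 reads in Ctrl and 287 and 219 in cKO neurospheres, over 10.6, 10.8, 5.8 and 5.4 kb. The log2 fold change was -1.62 ± 0.30 (SE), with an adjusted p of 0.175 by edgeR and 0.00208 by DESeq2. Ctrl and cKO did not overlap. Foxq1 followed at -0.88 ± 0.19 (1808, 1300, 816 and 850 reads, edgeR adjusted p = 0.180). Foxi2 moved the other way, at 1.07 ± 0.26 (1213, 837, 1630 and 2657 reads, edgeR adjusted p = 0.193). Its called length grew from 22.4 and 18.8 kb to 37.8 and 61.6 kb, and by density its value was 0.10. Foxo6 held 35574, 28831, 20956 and 18001 reads (-0.71 ± 0.17, edgeR adjusted p = 0.189) and by density had -0.44 with an edgeR adjusted p of 0.00946, where Foxq1 had -0.48 and 0.0160 and 2.49% of all regions passed.

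**Figure D5:**
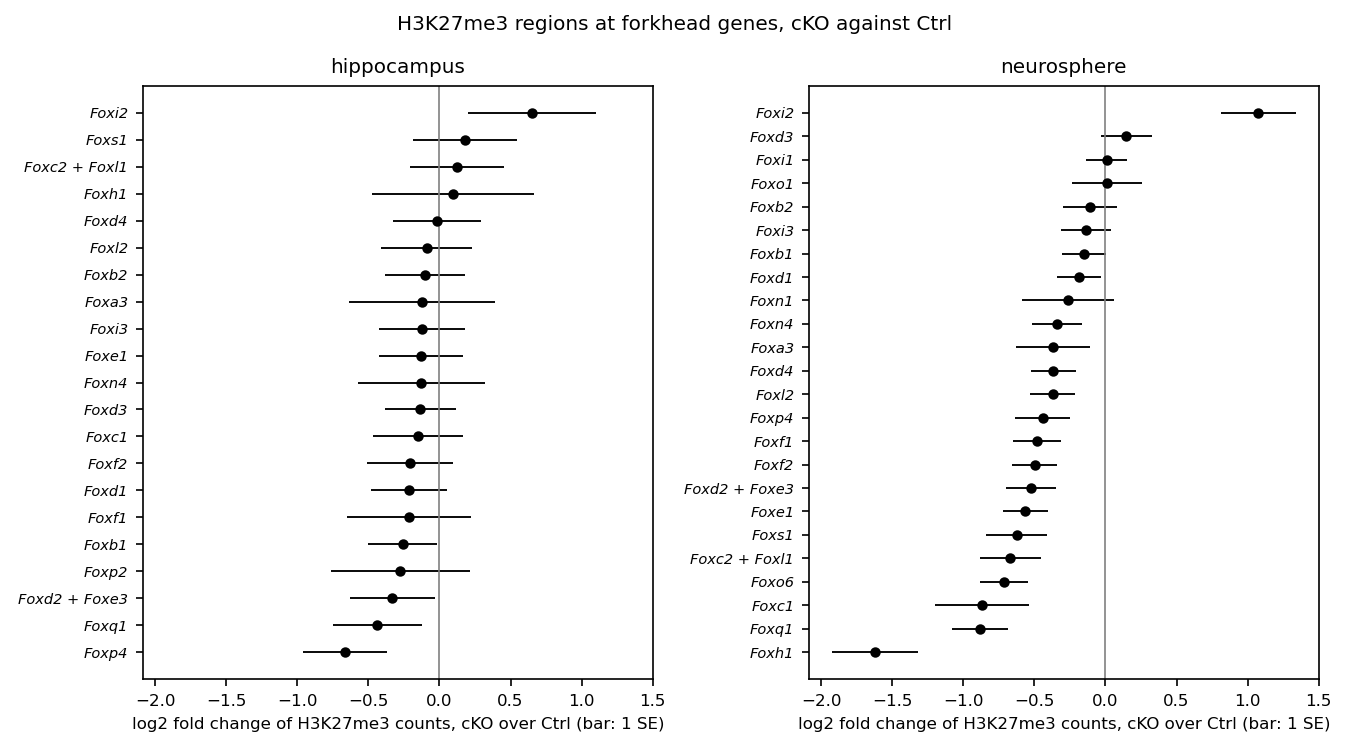
Log2 fold change of H3K27me3 counts, cKO over Ctrl, for merged regions at forkhead genes called in all 4 libraries of hippocampus (left, 21 regions) or neurospheres (right, 24 regions); points are edgeR estimates and bars 1 SE, and no region has an adjusted p under 0.05. In neurospheres 20 of 24 points lie below 0, from -1.62 for Foxh1 to 1.07 for Foxi2.

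In hippocampus 17 of 21 H3K27me3 member regions were lower in cKO, with a median of -0.13 against -0.02 over all 4387 regions, but 9 of 21 were lower by density. This direction rested on single libraries, as the member median was 0.20 without Ctrl 2, the library with the smallest covered length, and 0.09 without cKO 1, and -0.32 and -0.36 without Ctrl 1 and cKO 2. The unadjusted p was under 0.05 in 0 member regions and in 155 of all, and DESeq2 called 3 regions, none at a member. The ends of the range were Foxp4 (-0.66 ± 0.29, with 2585, 1746, 2149 and 2621 reads) and Foxi2 (0.65 ± 0.45, with 222, 81, 377 and 369 reads), with edgeR adjusted p-values of 0.994.

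For H2AK119ub1, 16 of 21 member regions in neurospheres were lower in cKO with a median of -0.30 against 0.01 over all 6060 regions, and 20 of 21 were lower by density. Foxc1 held 921, 581, 308 and 210 reads (-0.999 ± 0.68, SE), Foxq1 711, 525, 221 and 276 (-0.93 ± 0.62) and Foxi2 849, 79, 355 and 713 (0.95 ± 0.80). The libraries of a genotype differed widely, no member region had an unadjusted p under 0.05, and over all regions 101 did, with 32 called by DESeq2. Leaving out the Ctrl 1 library gave 1 of 22 member regions past the FDR, higher in cKO, beside 8.49% of all 6680 regions. In hippocampus 11 of 15 member regions were lower, 8 by density, with a median of -0.23 against 0.02. The replicate 1 libraries held few reads at each member, such as 322, 901, 120 and 889 at Foxd3, a neural crest gene (-0.80 ± 0.58). Of all 2750 regions 30 had an unadjusted p under 0.05 and DESeq2 called 0. For H3K36me2, no member region had an island in all 4 hippocampal libraries (over all 6447 regions 318 had an unadjusted p under 0.05 and DESeq2 called 17). In neurospheres 3 were, Foxj2 (-0.37 ± 0.44), Foxn3 (0.09 ± 0.47) and Foxn2 (0.19 ± 0.32), with edgeR adjusted p-values from 0.962 to 0.986, and over all 34454 regions 736 had an unadjusted p under 0.05 and DESeq2 called 83, none at a member.

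In coverage of the starts the genotypes differed by a few points on average. The restricted members averaged 97.7 ± 0.380% (SD, n = 2) in Ctrl and 95.2 ± 1.21% in cKO neurospheres for H3K27me3, and 86.2 ± 2.61% and 92.3 ± 7.65% in hippocampus. For H2AK119ub1 the averages were 89.1 ± 13.0% and 84.9 ± 10.8% in neurospheres and 66.1 ± 33.2% and 62.6 ± 43.0% in hippocampus, differences well within the spread between libraries. For H3K27me3 the differences of 6.19 points in hippocampus and -2.49 points in neurospheres, in opposite directions, both exceeded the pooled SD (5.71 and 0.894 points). In hippocampus the genotypes overlapped, as cKO 1 (86.9%) lay between the Ctrl libraries and cKO 2 (97.8%) above them. Over all autosomal promoters hippocampal coverage was 11.5, 8.79, 9.69 and 17.2%, with cKO 2 again the highest. In neurospheres all autosomal promoters had 18.6, 18.8, 20.5 and 15.7%. The CpG-rich ones there had 14.996, 14.78, 13.66 and 10.99%, also lower in both cKO libraries. In addition, 2 libraries against 2 are too few for an exact permutation test to pass 0.05. In neurospheres Foxh1 was the 1 restricted member whose cKO values both lay below Ctrl.

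A start was called lower when both cKO libraries lay below both Ctrl libraries. For H2AK119ub1 in neurospheres this held for Foxc1 (100, 74.2, 39.2 and 39.2%), Foxi1 (100, 100, 37.2 and 80%) and Foxo1 (100, 36.6, 18.4 and 0%), and no member was higher, beside 7.12% of marked promoters lower and 4.56% higher. For H3K27me3 in neurospheres it held for Foxh1 (91.3, 100, 51.3 and 71.3%), Foxp1 (41.975, 41.975, 26.975 and 0%) and Foxp4 (100, 100, 80 and 80%), beside 13% lower and 9.21% higher. These 3 of 34 and 3 of 28 members with an island in any library (8.82% and 10.7%) were near the shares of all marked promoters. In hippocampus no member was lower for either mark, beside 2.68% for H3K27me3 and 1.69% for H2AK119ub1. Foxh1 was higher for H3K27me3 (61.3, 51.3, 71.3 and 86.3%), beside 12.4%, and no member was higher for H2AK119ub1, beside 2.04%. For H3K36me2 Foxn1 was higher in hippocampus (0, 0, 26.1 and 34.0%), beside 7.56% higher and 4.18% lower, and Foxp2 lower in neurospheres (31.3, 40, 26.3 and 0%), beside 5.59% lower and 4.25% higher.

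The difference of the genotype effect between the sources was tested as an interaction over 8 libraries per mark. No member region passed, edgeR called 0% of all regions in each mark, and no member had an unadjusted p under 0.05. Over all regions that p was met by 22 for H2AK119ub1, 258 for H3K27me3 and 205 for H3K36me2, and DESeq2 called 0, 47 and 10, none at a member. In Foxh1, whose coverage moved in opposite directions, the interaction was -1.33 ± 0.66 (SE) on the log2 scale with an edgeR adjusted p of 0.506.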

How the data were processed

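H2AK119ub1, H3K27me3 and H3K36me2 ChIP-seq libraries of hippocampus and neurospheres were used. Of 36 samples, 12 were inputs and were not analysed here. The authors trimmed reads with cutadapt, aligned them to mm10 with Bowtie2 2.4.5, removed duplicates with samtools and called islands per library against input with SICER (window 200 bp, gap 600 bp, FDR 0.01). The deposited files give each island with its raw read count, not normalised. Mitochondrial islands (9) were left out, and island edges lay on the 200 bp grid.

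Groups were taken from the labels. The members and lists were chosen with earlier results of these data known, and all members may be named. Values in every library are given for members past an FDR of 0.05, the 3 largest changes per genotype comparison, members within 100 kb of each other, starts whose genotypes differed by at least 25 points without overlap, and widely expressed members with a Polycomb island at the start in both Ctrl libraries. Others were added after their values were seen. Coverage was computed base by base on the annotated GRCm38 genes and is descriptive, and it was tested on 2000 simulated windows, with 0 errors. Counts per merged region were fitted with edgeR 4.0.16 (TMM factors, R 4.3.3) on regions called in every library, since other places have no count. Island counts are not depth, so precision rests on the spread of 2 libraries per group. On simulated counts with the fitted spread, of 200 regions changed 4-fold, 32.5% were recovered for the genotype in hippocampal H2AK119ub1, 0% in neurosphere H2AK119ub1, 73% and 58.5% in hippocampal and neurosphere H3K27me3, and 58% and 7% for H3K36me2. For the source comparison 85%, 99.5% and 83% were recovered, and for the interaction 2%, 42% and 0%, in the order H2AK119ub1, H3K27me3 and H3K36me2. Alternatives were DESeq2 1.42.0, other size factors, filters on counts, island length and density, equal covered length, called length as an offset, a replicate block, other promoter widths and starts, a wider list of 15 widely expressed members and leaving out each library. The density scaling and the crossed block were added after seeing the data. The start sequence of 1 member is not reported here.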

Additional observations from a re-analysis of the deposited data

Results flagged for a closer look

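Foxh1 was the 1 member whose promoter coverage by H3K27me3 moved in opposite directions in the sources without overlap between the genotypes in either. The means of Foxo1, Foxp1 and Foxp2 also had opposite signs, with overlapping or tied libraries in at least 1 source. In Foxh1 the mean of the cKO libraries lay 22.5 percentage points above that of Ctrl in hippocampus, where neither cKO value reached down to a Ctrl value, and in neurospheres the difference was -34.4 points, again without overlap. The difference in coverage itself was not tested. Foxh1 was found by looking through all 37 members and 3 marks. Of all promoters with an H3K27me3 island in any library, 12.4% were higher in hippocampal cKO. In neurospheres 13% were lower, and the share that met both is not given here. The interaction of the counts in the Foxh1 region was -1.33 on the log2 scale with an edgeR adjusted p of 0.506. Its start is CpG-poor, and its hippocampal islands were on average the narrowest of the restricted members.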

How the results depend on the processing

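Of 336 alternative values of 30 results, 307 kept their direction and their side of the threshold, or moved by less than the spread between libraries. Some cKO changes in coverage of restricted starts did change sign when 1 library was left out. For hippocampal H2AK119ub1 the change of -3.42 points turned positive without Ctrl replicate 2 or cKO replicate 1. In neurosphere H2AK119ub1 the change of -4.19 points turned positive without Ctrl replicate 1 or cKO replicate 1. The neurosphere H3K36me2 change of 3.82 points turned negative without cKO replicate 1. For H3K27me3 the sign held in both sources. The median change of the hippocampal H3K27me3 member regions turned to 0.20 without Ctrl replicate 2 and to 0.09 without cKO replicate 1. For the genotype in neurosphere H3K27me3 (0 member regions), DESeq2 gave 2 (734 of all 11262 regions), called length as an offset 13 (1504), that offset recentred on the mean density 2 (280), and leaving out 1 library 0 to 10, the 10 without cKO replicate 1 (2853 of 16288). In neurosphere H2AK119ub1 leaving out 1 library gave 0 to 1, the 1 without Ctrl replicate 1. A genotype left with 1 library is assumed to vary like the other. For the source, called length as an offset gave 17 of 21 member regions in H3K27me3 (2030 of all 2373), 0 in H2AK119ub1 (0 of 1555) and 1 of 1 in H3K36me2 (5170 of 5204). This offset alone shifted the median log2 fold change of all regions by -0.89, -1.30 and -0.95, as its values are not recentred, and the same holds for the 13 regions above (shift -0.28). Leaving out 1 library gave 4 to 10 in H3K27me3 and 0 to 2 in H2AK119ub1.

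The deviations of same-numbered libraries had correlations of -0.322 to 0.327, from 2 pairs per comparison. These cannot settle whether a replicate number stands for a shared preparation. The highest was in hippocampal H2AK119ub1, where both replicate 1 libraries were narrow. The replicate block changed no call at a member, with 0 member regions for each genotype comparison and interaction, and 1, 8 and 0 for the source in H2AK119ub1, H3K27me3 and H3K36me2. Over all regions of hippocampal H3K27me3 it raised the calls from 0 to 9 of 4387, and the member regions with an unadjusted p under 0.05 from 0 to 3. With crossed numbers the block gave 0 member regions in both Polycomb marks of neurospheres.

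Promoter gaps between restricted and widely expressed members (points) were 70.3 for neurosphere H2AK119ub1 without the sparsest 25% of islands. With promoters of 1 kb on each side they were 70.7 (neurosphere H2AK119ub1), 84.6 (hippocampus H3K27me3) and 84.5 (neurosphere H3K27me3). At principal starts they were 65.0, 72.7 and 83.3 in that order and -14.3 for neurosphere H3K36me2. With 15 widely expressed members they were 52.9, 70.6 and 65.7 and -1.02 for hippocampal H3K36me2, and the body gaps in neurospheres were 54.0 (H2AK119ub1) and 72.7 (H3K27me3). The body gap in hippocampal H3K36me2 was -4.41 without the sparsest 25% of islands. The cKO change at restricted starts in that set was -1.78 to 0 when leaving out 1 library. Causes were not tested. Places without an island carry no count, so the fits say nothing about regions missing in any library.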
